A study of Mus musculus with 9 samples.

Results

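The tricarboxylic acid cycle enzymes examined here were Cs, Idh2, Idh3a, Idh3b, Idh3g, Ogdh, Dlst, Suclg1 and Mdh2. They were chosen by gene symbol, with earlier results of these data known, and make up 9 of the 13890 genes listed in the heart count table. All 9 passed the filter on low counts and were among the 13364 genes tested.

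The cycle oxidises acetyl-CoA in the mitochondrial matrix and hands its electrons to the respiratory chain as NADH and as reduced flavin. Cs (citrate synthase) condenses acetyl-CoA with oxaloacetate, and isocitrate is then oxidised either by the NAD-dependent enzyme built from Idh3a, Idh3b and Idh3g or by the NADP-dependent Idh2. Ogdh and Dlst are subunits of the 2-oxoglutarate dehydrogenase complex, Suclg1 is the shared alpha subunit of succinyl-CoA synthetase, and Mdh2 regenerates oxaloacetate from malate. Heart muscle, which works almost wholly on oxidative metabolism, is among the tissues richest in these enzymes.

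Hearts came from male NSG mice, an immunodeficient strain that accepts human cells, which entered the study at 8 weeks of age. Sham-operated mice (S, animals 2, 3 and 5) carried no tumour cells. The mice labelled T (animals 11, 12 and 15) had HCT116 cells, a human colorectal cancer line, placed in the spleen, from where such cells seed the liver, and the mice labelled A + T (animals 20, 21 and 22) received the same cells and weekly ACVR2B/Fc. ACVR2B/Fc is a soluble activin receptor joined to an antibody Fc fragment, and it captures activins, myostatin and related ligands. S and T mice were given saline in its place, and euthanasia followed approximately 3 weeks after surgery by the series' design text, with a somewhat later day given in the methods. Each group had 3 animals, 1 cancer cell line was used, and the host has no functional lymphocytes of its own. No heart analysed here was labelled as given ACVR2B/Fc without tumour cells.

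A disagreement between sources bears on every comparison. Across a gene list supplied with the study, the differences between the libraries labelled T and S followed the listed column for ACVR2B/Fc against sham almost exactly, and not the column for HCT116 against sham. The differences between the libraries labelled A + T and T did not follow their own listed column either (Pearson r = 0.0882). None of the 9 enzymes is in that list. Which treatment the hearts labelled T received can therefore not be settled from these files, and they are called the libraries labelled T throughout.

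Libraries held 12392222 to 19732471 counts, so that 3 counts corresponded to 0.152 to 0.242 CPM (counts scaled to a common library total). The 9 enzymes took 0.837% to 1.12% of all counts and counting error was small for each. The ribosomal precursor gene Rn45s took 4.57% to 19.6% of counts. No pair of replicates agreed within sampling noise. Transcripts of airway secretory cells, which a heart should lack, summed to at most 2.08 CPM in 7 libraries, to 103 CPM in T animal 12 and to 1079 CPM in A + T animal 22. T animal 12 was the lowest of its group for 8 of the 9 enzymes and A + T animal 22 for 5, as was S animal 2, while T animal 11 was the highest of its group for all 9. The counts of enzymes and of other pathway genes called were also obtained without T animal 12 and A + T animal 22.

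The most abundant of the 9 transcripts per unit of length was Idh2, and the least abundant was Dlst. On the deposited scale, which divides each count by gene length and library size and was converted back from log2 here, Idh2 averaged 1349 over the 9 libraries. Mdh2 followed at 840.5, then Cs at 514 and Idh3b at 420.2. Ogdh (368) and Idh3g (364) came next, ahead of Idh3a (248), Suclg1 (219) and Dlst (208). Idh2 was above Mdh2, Mdh2 above Cs and Idh3g above Idh3a in 9 of 9 libraries. Ogdh exceeded Idh3g in only 5 of 9 libraries, and Suclg1 exceeded Dlst in 7 of 9, so neither pair was separated beyond its spread. The place of Ogdh depended on the length used: the deposited scale implied 7.02 kb, and with the exon length of 5.46 kb in GENCODE it moved from rank 5 to rank 2.

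Sequence upstream of the genes was read from RefSeq promoters on GRCm38.p6, for which 8 of the 9 enzymes had an entry and Idh3a had none. Idh2 lies on the minus strand of chromosome 7, at 80094846 to 80115392 on GRCm38 (mm10), and is shown because it was the enzyme whose difference passed the test below. The 100 bases directly before the annotated gene, at chr7:80115393-80115492 on the minus strand, are 72.0% G and C.
Idh2: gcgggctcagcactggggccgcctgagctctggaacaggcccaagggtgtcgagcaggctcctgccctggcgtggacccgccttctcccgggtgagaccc

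The 5 motifs searched belong to factors tied to mitochondrial genes, and both strands of the 250 bases before each start were read. None of the 8 enzymes held the estrogen-related receptor half-site AAGGTCA, which 4.08% of all 32851 promoters held. The NRF1 core GCATGCGC (2.26% of all promoters) and the E-box CACGTG (6.02%) were found in Ogdh, which has 6 annotated promoters. The ETS motif CCGGAAG (6.91%) was found in Idh3g, and the cAMP response element TGACGTCA (1.55%) in Ogdh and Mdh2. A match is only a match of letters. Windows around 2 of the matches, with the motif in capitals, are shown as examples from Idh3g, one of the enzymes that differed least, and Ogdh, the one with most matches. The first window is chrX:73786979-73787017 on the minus strand, and the second is chr11:6291530-6291569 on the plus strand.
Idh3g: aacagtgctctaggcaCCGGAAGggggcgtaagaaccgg
Ogdh: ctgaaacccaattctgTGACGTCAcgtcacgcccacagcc

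The first comparison set the libraries labelled T against S. Idh2 rose by 25.7%, and it was the only one of the 9 enzymes to pass the test. The other 8 were all lower on average, with fitted differences of −1.79% (Idh3g) to −20.3% (Dlst), and none of these passed. Without S animal 3 or without T animal 12, 6 of 9 were lower. By edgeR's quasi-likelihood test with Benjamini-Hochberg adjustment over all genes, 1 of 9 enzymes was called at an adjusted P under 0.05, where 21.2% of all genes tested were called. At an unadjusted P under 0.05 there were 2, Idh2 and Dlst, beside 4731 of all 13364 genes tested. The median log2 fold change of the 9 was −0.15, beside −0.004 for all genes. No enzyme reached the study's thresholds of a 1.5-fold change with an unadjusted P under 0.05, which 14.2% of all genes reached.

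**Figure D1:**
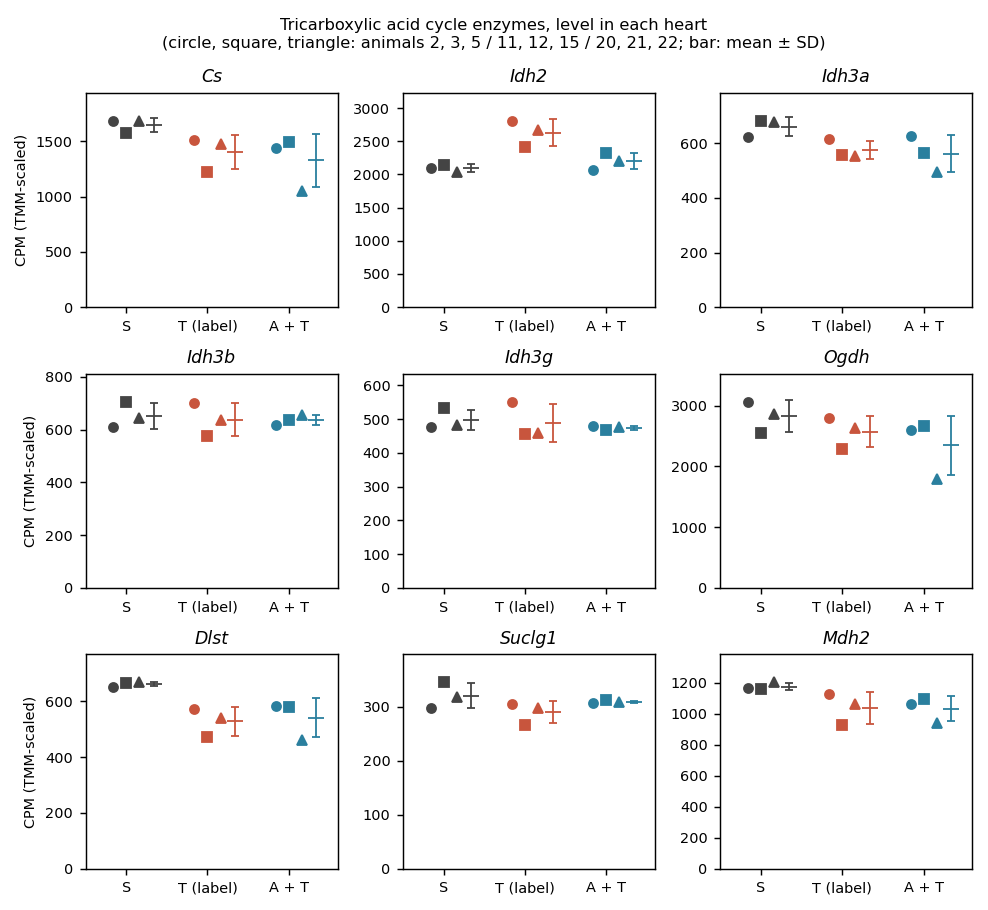
TMM-scaled CPM (vertical axes, from 0) of each of the 9 enzymes in each heart, by group, with the mean ± SD beside the 3 animals. Idh2 in the 3 libraries labelled T, at 2421 to 2810 CPM, lies above every S library (2032 to 2148 CPM), whereas Dlst in T (470.4 to 573 CPM) lies below every S library (652 to 668 CPM).

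Idh2 makes NADPH in mitochondria while it oxidises isocitrate. It measured 2100.0, 2148 and 2032 CPM in S animals 2, 3 and 5, 2810.2, 2421 and 2665 CPM in T animals 11, 12 and 15, and 2071, 2324 and 2210.3 CPM in A + T animals 20, 21 and 22. Every library labelled T was higher than every S and every A + T library, while S and A + T overlapped. The means were 2093 ± 58.3, 2632 ± 196 and 2202 ± 127 CPM (SD, n = 3 each). T exceeded S by 0.33 on the log2 scale (SE 0.092, edgeR adjusted P = 0.0282). This call was lost when any one S animal was left out, with adjusted P values (edgeR) of 0.0689 to 0.101, and without T animal 11 (0.0944) or T animal 15 (0.0692). It held without T animal 12, and without T animal 12 and A + T animal 22 together the log2 fold change was 0.39 (edgeR adjusted P = 0.00489).

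The NAD-dependent isocitrate dehydrogenase, a step of the cycle that calcium and ADP activate, held no call among its 3 subunits. Idh3a, its catalytic subunit, measured 622, 682 and 678 CPM in S, 615, 558 and 554 CPM in T, and 627, 565 and 494 CPM in A + T. The T libraries all lay below the S libraries, and A + T overlapped with both. The fitted T vs. S difference was −0.20 on the log2 scale (SE 0.10, edgeR adjusted P = 0.184).
The regulatory subunits Idh3b and Idh3g overlapped between all 3 groups. Idh3b averaged 653 ± 49.2 CPM in S, 638 ± 62.5 CPM in T and 636 ± 18.7 CPM in A + T, and Idh3g averaged 498 ± 29.6, 489 ± 55.1 and 474 ± 5.78 CPM (SD, n = 3). Their T vs. S log2 fold changes were −0.035 (SE 0.095) and −0.026 (SE 0.094), the smallest of the 9.

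Dlst carries the lipoyl group of the 2-oxoglutarate dehydrogenase complex and hands the succinyl unit to coenzyme A. It measured 652, 666 and 668 CPM in S, 573, 470.4 and 540.5 CPM in T, and 583, 581 and 462 CPM in A + T. Every library labelled T or A + T lay below all S libraries, which had an SD of 8.76 CPM (n = 3). In T vs. S its log2 fold change was −0.33 (SE 0.11, edgeR adjusted P = 0.0571), just outside the threshold. It passed with DESeq2 (adjusted P = 0.0265) and in 5 other alternatives, among them the fit without A + T animal 22 (edgeR adjusted P = 0.0144). In the other 12 of 18 alternatives it missed the threshold, with an edgeR adjusted P of 0.158 without T animal 12. With each animal left out in turn, only 1 fit called it.
Ogdh, the decarboxylating subunit of the same complex, measured 3070.1, 2556 and 2862 CPM in S, 2794, 2294 and 2640.4 CPM in T, and 2597, 2662 and 1788 CPM in A + T. The groups overlapped, with A + T animal 22 far below every other heart, and the T vs. S log2 fold change was −0.14 (SE 0.15, edgeR adjusted P = 0.565).

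Cs, whose activity is widely used as a marker of mitochondrial content, measured 1687, 1579 and 1686 CPM in S, 1509, 1224 and 1476 CPM in T, and 1438, 1490.2 and 1054 CPM in A + T. All 6 libraries labelled T or A + T were below all 3 S libraries. Neither difference passed: the log2 fold change was −0.23 (SE 0.14, edgeR adjusted P = 0.246) in T vs. S and −0.31 (SE 0.14, edgeR adjusted P = 0.174) in A + T vs. S.
Mdh2 showed the same order of groups, with 1165, 1161 and 1204 CPM in S, 1129.6, 926 and 1062 CPM in T, and 1063, 1099 and 942 CPM in A + T. Its log2 fold changes were −0.18 (SE 0.098, edgeR adjusted P = 0.219) in T vs. S and −0.19 (SE 0.098, edgeR adjusted P = 0.259) in A + T vs. S.
Suclg1 measured 298, 345 and 318 CPM in S, 305, 266 and 297 CPM in T, and 307, 311 and 308 CPM in A + T. T overlapped with S, with a difference of −0.15 on the log2 scale (SE 0.084, edgeR adjusted P = 0.242).

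Groups did not overlap in T vs. S for 5 of the 9 enzymes, Idh2 upward and Cs, Idh3a, Dlst and Mdh2 downward, beside 42.6% of all genes tested.

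A + T vs. T asked how the hearts labelled with ACVR2B/Fc differed from those labelled with tumour cells alone. It uses the same T libraries as T vs. S, so the fitted differences of both are given side by side and not as separate evidence. No enzyme was called by edgeR's quasi-likelihood test, where 5.88% of all genes were called. Idh2 alone had an unadjusted P under 0.05, beside 2994 of all 13364 genes tested. DESeq2 called 1 enzyme (Idh2), and limma on the deposited log2 values called 0. Idh2 had a log2 fold change of −0.26 (SE 0.092, edgeR adjusted P = 0.128, DESeq2 adjusted P = 0.0244). Its groups did not overlap, and those of Suclg1 did not either, with a log2 fold change of 0.093 (SE 0.084, edgeR adjusted P = 0.557). These were 2 of 9 enzymes, where 25.4% of all genes had no overlap. The remaining 7 had log2 fold changes between −0.13 (Ogdh) and 0.037 (Dlst), and the median of the 9 was −0.034. At the study's thresholds 0 of 9 were counted, beside 8.10% of all genes.

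**Figure D2:**
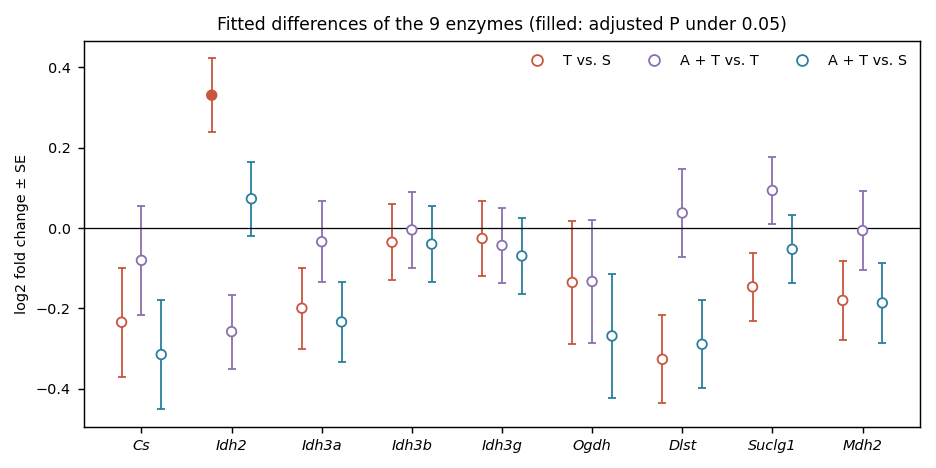
Log2 fold change ± SE (vertical axis) of each of the 9 enzymes in the 3 comparisons, from edgeR, with filled points for an adjusted P under 0.05. Idh2 in T vs. S (0.33) is the only filled point, and 8 of 9 points lie below 0 in T vs. S and in A + T vs. S.

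A + T vs. S showed 8 of the 9 enzymes lower on average and Idh2 5.18% higher, with a log2 fold change of 0.073 (SE 0.092, edgeR adjusted P = 0.654). None was called by edgeR, DESeq2 or limma, although 8.31% of all genes were called by edgeR. At an unadjusted P under 0.05 there were 3: Cs (−0.31 on the log2 scale), Idh3a (−0.23) and Dlst (−0.29), with edgeR adjusted P values of 0.174, 0.172 and 0.126. Of all 13364 genes tested, 3489 had an unadjusted P under 0.05. Cs, Dlst and Mdh2 did not overlap between the groups, 3 of 9 beside 32.4% of all genes. The study's thresholds counted 0 of 9, beside 8.91% of all genes. The median log2 fold change of the 9 was −0.19, and −0.0998 without A + T animal 22.

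A + T animal 22 weighed on these averages unevenly across the 9 enzymes. Against the mean of the other A + T animals its Ogdh differed by −32.0%, Cs by −28.0%, Dlst by −20.5% and Idh3a by −17.2%. Mdh2 differed by −12.8%, whereas Suclg1, Idh3g, Idh2 and Idh3b differed by between −0.458% and 4.54%. The 4 enzymes with the largest deficits were the 4 with the longest transcripts on the deposited scale, 2.42 kb (Idh3a) to 7.02 kb (Ogdh), and the other 5 were 1.29 kb (Mdh2) to 1.71 kb (Idh2). The same library differed by length over the genes that reached 10 counts in each of the 9 libraries: 6127 genes under 3 kb had a median difference of 6.08% from the other A + T animals, and 6127 longer genes one of −7.14%. Of the enzymes only Ogdh is in the longer set, and Cs, Dlst and Idh3a were low in this library although they belong to the shorter set. In the other 8 libraries these medians stayed between −4.16% and 4.32%. The part of transcript length in the low values of A + T animal 22 was not tested further. The coefficient of variation in A + T ran from 0.738% for Suclg1 and 1.22% for Idh3g to 18.0% for Cs and 20.7% for Ogdh, while in S it was 1.32% (Dlst) to 9.13% (Ogdh).

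Against the mean of the other T animals, T animal 12 differed by −18.0% for Cs, −15.6% for Ogdh, −15.5% for Dlst and Mdh2, −14.0% for Idh3b and −4.55% for Idh3a.

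A proportion between 2 transcripts of 1 heart is untouched by a shift that both share. Proportions were computed for 12 pairs on the length-scaled log2 values, chosen after the levels had been seen, and several pairs share a transcript, so they are descriptions without a test. With 3 against 3 animals an exact permutation test cannot go below a two-sided P of 0.1. The proportion of Idh2 to Idh3a, the NADP-dependent over the NAD-dependent catalytic subunit, was 2.25, 2.15 and 2.08 on the log2 scale in S and 2.69, 2.62 and 2.76 in T. In A + T animals 20, 21 and 22 it was 2.22, 2.54 and 2.66, so that animal 20 lay within S and only animal 22 within T. The low values of A + T animal 22 described above were not shared by all enzymes, so these proportions are not free of them. On a linear scale Idh2 was 4.48 times Idh3a in S, 6.45 times in T and 5.55 times in A + T. Idh2 over Cs had log2 means of 1.08 ± 0.090 for S, 1.64 ± 0.067 for T and 1.48 ± 0.29 for A + T (SD, n = 3), and T and A + T both lay wholly above S. In A + T it was 1.26, 1.37 and 1.80, highest in animal 22.

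**Figure D3:**
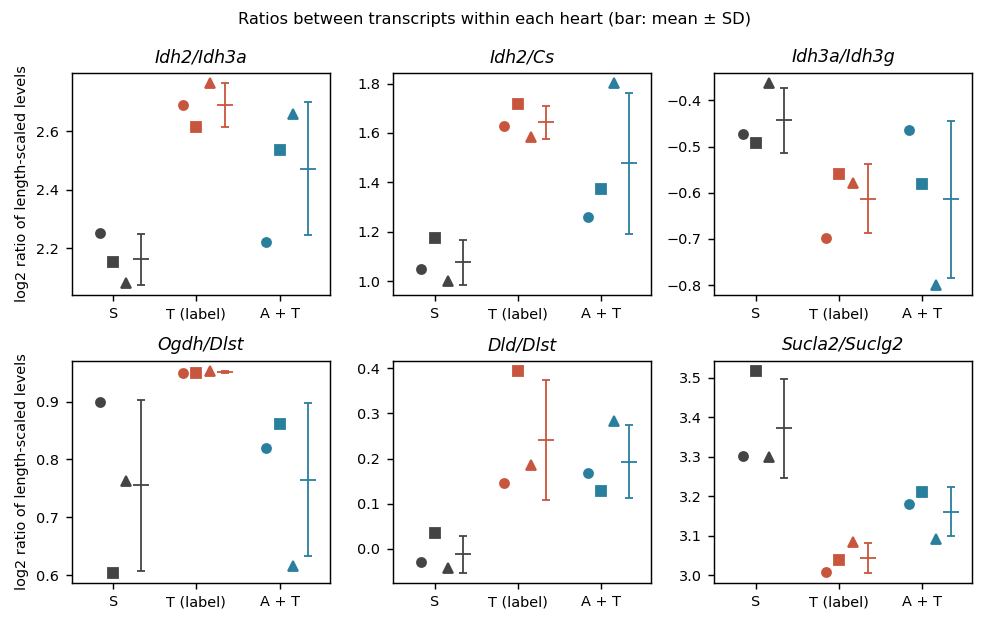
Log2 ratio of length-scaled levels (vertical axes, not starting at 0) between pairs of transcripts in each heart, by group, with the mean ± SD. Idh2/Idh3a is 2.08 to 2.25 in S and 2.62 to 2.76 in the libraries labelled T, and Ogdh/Dlst takes 3 nearly equal values of 0.95 in T.

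Within the NAD-dependent enzyme, Idh3b over Idh3g was nearly constant, with log2 means of 0.20 ± 0.036 for S, 0.19 ± 0.078 for T and 0.23 ± 0.050 for A + T. Idh3a over Idh3g was −0.44 ± 0.070 in S and −0.61 ± 0.075 in T without overlap, and −0.61 ± 0.17 in A + T, which overlapped both.
In the 2-oxoglutarate dehydrogenase complex, Dld, its lipoamide-reoxidising subunit, stood at −0.012 ± 0.041 (log2) against Dlst in S, at 0.24 ± 0.13 in T and at 0.19 ± 0.081 in A + T, and T and A + T were both above all S libraries. Ogdh over Dlst was 0.90, 0.60 and 0.76 in S, 0.95, 0.95 and 0.95 in T, and 0.82, 0.86 and 0.62 in A + T.
For succinyl-CoA synthetase, the ATP-forming beta subunit Sucla2 over the GTP-forming Suclg2 had log2 means of 3.37 ± 0.12 for S, 3.04 ± 0.037 for T and 3.16 ± 0.061 for A + T, with no overlap between any groups. T and A + T were barely apart, with 3.08 in T animal 15 and 3.09 in A + T animal 22. Of the 12 proportions, 8 had no overlap in T vs. S, 3 in A + T vs. T and 5 in A + T vs. S.

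A further 9 genes of the cycle and its complexes were Dld, Mrps36, Sucla2, Suclg2, Sdha, Sdhb, Sdhc, Sdhd and Fh1. edgeR called 0 of these 9 in each comparison, with 1 of 9 at an unadjusted P under 0.05 each time, and their median log2 fold changes were −0.036 in T vs. S, 0.033 in A + T vs. T and −0.011 in A + T vs. S. Of all 13364 genes tested, 4731, 2994 and 3489 had an unadjusted P under 0.05 in these comparisons. Sucla2 measured 559, 642 and 599.8 CPM in S and 545, 460 and 509.8 CPM in T, all lower, with a log2 fold change of −0.25 (SE 0.093, edgeR adjusted P = 0.0819). The 4 succinate dehydrogenase subunits, which are shared with the respiratory chain, had T vs. S log2 fold changes from −0.060 (Sdhc) to 0.037 (Sdhb), and Fh1, the fumarase between them and Mdh2, had −0.10 (SE 0.099). Mrps36, which fastens the E3 subunit Dld into the 2-oxoglutarate dehydrogenase complex, had 0.36 (SE 0.11, edgeR adjusted P = 0.0639) in A + T vs. S.

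**Figure D4:**
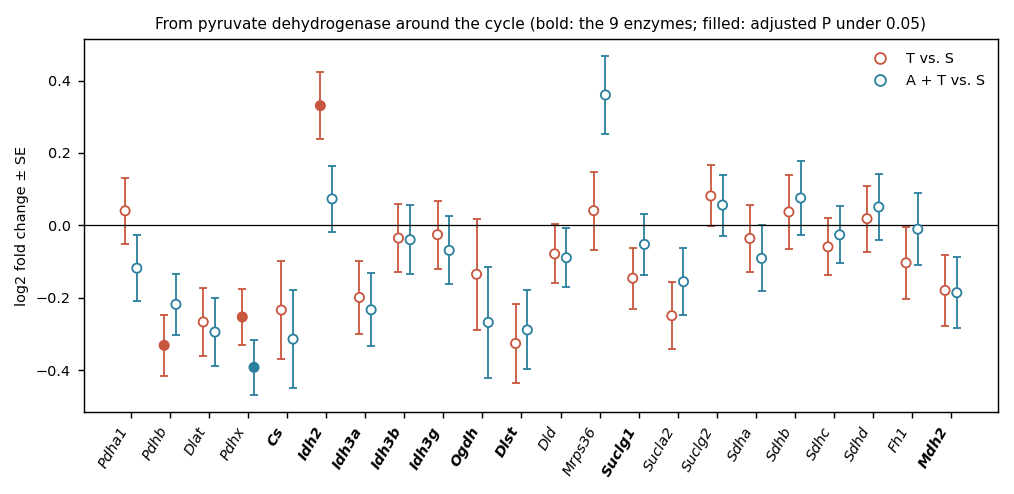
Log2 fold change ± SE (vertical axis), with S as the reference of both T and A + T, for the pyruvate dehydrogenase subunits and then for genes of the cycle in the order of its reactions, with the 9 enzymes in bold and filled points for an edgeR adjusted P under 0.05. Filled points are Pdhb (−0.33), Pdhx (−0.25) and Idh2 (0.33) in T vs. S and Pdhx (−0.39) in A + T vs. S.

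Entry of pyruvate, the step just before Cs, held all of the calls among the other genes of the pathway. Of 13 genes there, edgeR called 3 higher and 2 lower in T vs. S. In A + T vs. T it called 0 (2 at an unadjusted P under 0.05), and in A + T vs. S 2 higher and 1 lower. Over the whole list of 40 other pathway genes the calls were these 5, 0 and 3, each a smaller share than the 21.2%, 5.88% and 8.31% of all genes called. Among the 40, 6 in A + T vs. T had an unadjusted P under 0.05, beside 2994 of all 13364 genes tested. DESeq2 called 1 of the 40 there and limma 0.
Pdk4, a kinase that switches pyruvate dehydrogenase off, measured 126, 259 and 597 CPM in S, 3865, 1557 and 2435 CPM in T, and 2075, 2463 and 2555 CPM in A + T. Even the lowest library labelled T or A + T was above the highest S library. The log2 fold changes were 3.00 (SE 0.50, edgeR adjusted P = 0.00263) in T vs. S and 2.85 (SE 0.50, edgeR adjusted P = 0.0102) in A + T vs. S. The first was called under every one of 18 alternatives, and the second was lost only without S animal 3 (log2 fold change 2.71, edgeR adjusted P = 0.0555).
Pdk1, another such kinase, measured 466, 453 and 421 CPM in S, 570.0, 529 and 567 CPM in T and 460.0, 507 and 457 CPM in A + T, with a log2 fold change of 0.31 (SE 0.081, edgeR adjusted P = 0.0213) in T vs. S. Only T stood apart, above all S and all A + T libraries, as for Idh2.

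Of the enzyme's own subunits, Pdhb (E1 beta) and Pdhx (the E3-binding protein) fell. Pdhb measured 487, 536 and 489.7 CPM in S and 437, 385 and 379.5 CPM in T, a log2 fold change of −0.33 (SE 0.084, edgeR adjusted P = 0.0185). Pdhx measured 148, 156 and 149 CPM in S, 129, 127 and 124 CPM in T and 119, 121 and 105 CPM in A + T. Its log2 fold changes were −0.25 (SE 0.077, edgeR adjusted P = 0.0388) in T vs. S and −0.39 (SE 0.077, edgeR adjusted P = 0.0147) in A + T vs. S. Pdp1 and Pdp2, phosphatases that switch the enzyme back on, rose as well, Pdp1 by 0.33 (SE 0.10, edgeR adjusted P = 0.0473) in T vs. S and Pdp2 by 0.68 (SE 0.18, edgeR adjusted P = 0.0433) in A + T vs. S, both on the log2 scale. Apart from Pdk4, these calls depended on which animals were in the fit: with each of the 9 animals left out in turn, the T vs. S call held in 6 fits for Pdhb, 5 for Pdk1, 2 for Pdhx and 2 for Pdp1, and the A + T vs. S call in 7 for Pdhx and 3 for Pdp2.
The 17 cytosolic counterparts, shuttles and carriers held 0 calls by edgeR in each comparison, with 2 genes at an unadjusted P under 0.05 in T vs. S, 3 in A + T vs. T and 2 in A + T vs. S. For all 13364 genes tested these counts were 4731, 2994 and 3489.

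**Figure D5:**
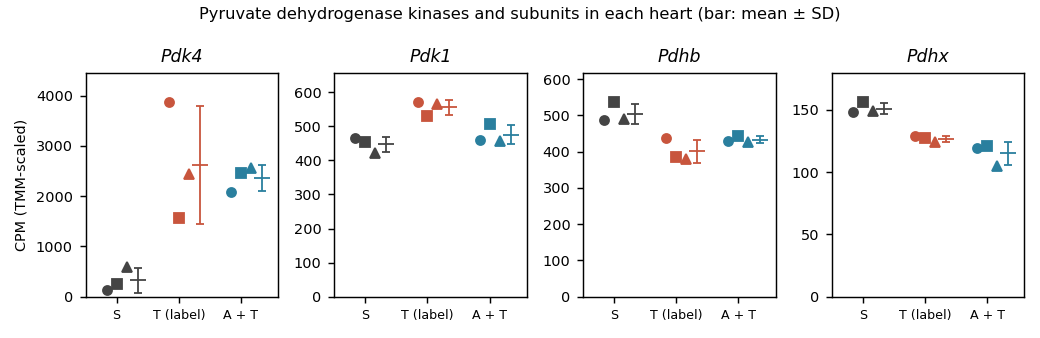
TMM-scaled CPM (vertical axes, from 0) of Pdk4, Pdk1, Pdhb and Pdhx in each heart, by group, with the mean ± SD. Pdk4 is 126 to 597 CPM in S and 1557 to 3865 CPM in the hearts labelled T or A + T, and Pdhx is highest in the 3 S hearts.

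A list of 9 regulators of mitochondrial genes was set beside the pathway. By edgeR, 2 of the 9 were called in T vs. S, 1 in A + T vs. T and 1 in A + T vs. S. The shares of all genes called were 21.2%, 5.88% and 8.31%. In T vs. S, Ppargc1a, a coactivator of mitochondrial biogenesis, rose and Tfam, which maintains and transcribes mitochondrial DNA, fell. Ppargc1a measured 157, 189 and 206 CPM in S, 375, 213 and 370.0 CPM in T and 192, 177 and 118 CPM in A + T. Its log2 fold change was 0.79 (SE 0.23, edgeR adjusted P = 0.0325) in T vs. S and −0.97 (SE 0.23, edgeR adjusted P = 0.0367) in A + T vs. T, and the T libraries lay above all others, as those of Idh2 did. Tfam had −0.23 (SE 0.068, edgeR adjusted P = 0.0357) in T vs. S. In A + T vs. S, Ppara, the receptor that drives fatty acid oxidation genes, fell by 0.57 on the log2 scale (SE 0.12, edgeR adjusted P = 0.0223), and the other 8 regulators were not called. These genes lie outside the rule for names and were picked after their values were seen. With each animal left out in turn, the call of Ppargc1a held in 4 of 9 fits in T vs. S and 2 of 9 in A + T vs. T, that of Tfam in 1 and that of Ppara in 6.

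Cell type markers shifted between the groups as well, and in whole-heart RNA fewer cells of a type and less RNA per cell cannot be told apart. Of all genes tested, edgeR called 21.2% in T vs. S, 5.88% in A + T vs. T and 8.31% in A + T vs. S. Cardiomyocyte markers, which defined the tissue as labelled, summed to 75493 to 81109 CPM in S, 62582 to 75959 CPM in T and 57839 to 74352 CPM in A + T, with T animal 12 and A + T animal 22 lowest. In T vs. S, 2 of 8 rose and 1 fell, and none was called by edgeR in the other comparisons, with 1 of 8 at an unadjusted P under 0.05 in each. All 6 fibroblast markers were called lower in T vs. S, from sums of 1614 to 1762 CPM in S to 849 to 993 CPM in T. In A + T vs. T all 6 were higher on average and 4 were called (1162 to 1830 CPM in A + T). All 5 endothelial markers were lower on average in T vs. S and 4 were called (714 to 836 CPM in S, 418 to 521 CPM in T). In A + T vs. T all 5 were higher on average and 1 was called. Of 5 macrophage markers, 4 were called higher in A + T vs. T and the same number in A + T vs. S (156 to 169 CPM in S, 158 to 173 CPM in T, 195 to 271 CPM in A + T). All 5 atrial markers were lower on average in T vs. S and 1 was called, and their sum spread from 861 to 4552 CPM within T. In A + T vs. S none was called, but for all 5 every A + T library lay below every S library. The sums were 2999 to 3083 CPM in S and 793 to 2054 CPM in A + T. Of all genes, 32.4% had no overlap in that comparison. Skeletal muscle and adipocyte markers held no call by edgeR, the erythroid list was represented only by Alas2, and the adipocyte marker Ucp1 was not listed. Of the 2 airway genes listed, 1 was tested and was called higher in T vs. S. It measured 0.166, 0.710 and 0.434 CPM in S and 1.11, 23.4 and 1.40 CPM in T, with T animal 12 far above the rest.

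Set against 100 CPM of cardiomyocyte markers, the 9 enzymes together came to 13.2, 13.4 and 14.0 CPM in S, 14.5, 14.7 and 15.4 CPM in T and 13.4, 13.6 and 14.5 CPM in A + T. On this scale T was above S in every library, although the plain sum of the 9 overlapped (10376 to 10682 CPM in S, 9190 to 10988 CPM in T, 8388 to 10135 CPM in A + T). The marker sum did not shift as one in T vs. S, where 3 of the 8 markers were higher and 5 lower. Fitted differences were −33.0% for Myh6 and −46.3% for Actc1, but 26.2% for Tnnt2 and 30.2% for Pln. The rest lay between −8.97% (Ryr2) and 2.86% (Myl2). The scale thus depends on the markers summed. Idh2 alone came to 2.59, 2.78 and 2.69 CPM in S, 3.70, 3.87 and 3.97 CPM in T and 2.84, 3.13 and 3.82 CPM in A + T per 100 CPM of these markers. Most of the rise of the summed enzymes from S to T was that of Idh2. Besides Idh2, only Idh3b lay above S in every T library, with 0.752, 0.915 and 0.853 CPM in S and 0.922, 0.919 and 0.950 CPM in T. The remaining enzymes overlapped between T and S on this scale. Dlst came to 0.804 to 0.885 CPM in S, 0.752 to 0.805 CPM in T and 0.781 to 0.799 CPM in A + T, with T animal 15 just above the lowest S library. The part of the cell makeup in the differences of the enzymes was not tested.

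Among the genes outside these lists whose profile over the 9 libraries came nearest to the mean profile of the enzymes were Ndufa10, Dnaja3, Mrps23 and Smyd1. Likeness was the root mean square difference of centred log2 CPM over 9 libraries, and among 13134 candidates these had 0.0273, 0.0359, 0.0383 and 0.0397. Ndufa10 is a subunit of respiratory complex I. Of the enzymes themselves Mdh2 was nearest to the mean profile, at 0.0384, and Idh2 farthest, at 0.191.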

How the data were processed

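Total RNA of 9 hearts was sequenced as strand-specific mRNA libraries, extracted and sequenced at one time per the labels. STAR placed the reads on mm10, featureCounts assigned them to RefSeq genes, and the authors deposited these counts per gene as they were. They also deposited log2 values, which differed from log2 CPM by a constant per gene (median SD 0.00199 after 1 constant per library) and so are scaled by gene length. The submitters' processing notes name FastQC, STAR and edgeR. Counting used strand, so that overlapping antisense genes are kept apart.

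A gene was removed where over 4 of the 9 libraries had less than 0.5 CPM (526 of 13890), following the study's filter. edgeR 4.0.16 (R 4.3.3) gave quasi-likelihood tests with TMM scaling and all 9 libraries in 1 fit, with Benjamini-Hochberg adjustment over 13364 genes and a threshold of 0.05. SE is the log2 fold change over the square root of F. CPM are TMM-scaled, and 0.1 was added before log2 for the profiles. Alternatives were DESeq2 1.42.0, upper-quartile scaling, library totals alone, no filter, a minimum of 10 counts per library, only the groups compared, limma 3.58.1 on the deposited log2 values, Rn45s left out, the study's thresholds, and each animal left out. Leaving out both libraries with airway transcripts was added after the data had been seen. Steps were tested on simulated data. Replicates are separately numbered animals. Positions are from GENCODE M21. All per-sample columns were used. The limit of 3 counts covers counting error only, whereas the SD and SE values also hold the spread between animals.

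The enzymes and gene lists were chosen with earlier results of these data known. Named were all 9 enzymes, called genes of the pathway list (at most 5 in each direction), other genes of the cycle, and the 5 nearest profiles. Some genes these rules name are not reported here. Figures were drawn with Python 3.11.15 and matplotlib 3.10.9.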

Additional observations from a re-analysis of the deposited data

How the results depend on the processing

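The number of enzymes called in T vs. S, 1 in the fit reported, was 2 with DESeq2, upper-quartile scaling, a minimum of 10 counts per library, only the groups compared, or without T animal 12 and A + T animal 22 (Idh2 upward and Dlst downward each time), and 0 with library totals alone, with the deposited log2 values in limma, and at the study's thresholds. With each animal left out it was 0 to 2. For A + T vs. T it was 0, with 1 under DESeq2 and 0 in every fit that left out an animal. For A + T vs. S it was 0 under all 19 alternatives. The other pathway genes called in T vs. S, 5 in the fit reported, were 1 with library totals alone, 10 without both animals named above and 1 to 7 with each animal left out. In A + T vs. T they were 1 under DESeq2 and 1 without both animals, against 0. In A + T vs. S they were 5 under DESeq2, 1 with library totals alone and 0 to 4 with each animal left out, against 3. The cause of these shifts was not tested.

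Idh2 in T vs. S stayed positive in all 18 alternatives (0.28 to 0.39 on the log2 scale) but missed the threshold in 7: the 5 fits without an S animal, T animal 11 or T animal 15, library totals alone (0.29, edgeR adjusted P = 0.212) and limma (0.33, adjusted P = 0.0569). Signs turned only where no call was made. The largest log2 fold change whose sign turned was that of Ogdh in A + T vs. T, at −0.13 in the fit reported and 0.0274 without A + T animal 22. In T vs. S, Idh3b was 0.0413 and Idh3g 0.0306 without both animals named above. In A + T vs. T, upper-quartile scaling gave Idh3a 0.0122, Idh3b 0.0419, Idh3g 0.00309 and Mdh2 0.0399, library totals gave Idh3b 0.0198 and Mdh2 0.0206, the limit of 10 counts gave Idh3b 0.00659 and Mdh2 0.00465, and leaving out both animals gave Idh3a 0.0266. With each animal left out, the ranges that crossed 0 were −0.11 to 0.0336 for Idh3b and −0.12 to 0.0268 for Idh3g in T vs. S, −0.0820 to 0.0201 for Idh3b and −0.0969 to 0.00414 for Suclg1 in A + T vs. S, and in A + T vs. T −0.17 to 0.0589 for Cs, −0.12 to 0.0488 for Idh3a, −0.0736 to 0.0681 for Idh3b, −0.0920 to 0.0539 for Idh3g, −0.23 to 0.0274 for Ogdh, −0.0393 to 0.14 for Dlst and −0.0830 to 0.0581 for Mdh2. Over all genes, calls in T vs. S went from 2837 to 1637 with library totals alone and 1765 to 3786 with each animal left out. In A + T vs. T they went from 786 to 438 with library totals alone, 1200 with DESeq2, 217 with only the groups compared and 130 to 1006 with each animal left out, and in A + T vs. S from 1110 to 555 with library totals alone and 269 to 1086 with each animal left out.

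No paired analysis was possible because the animal numbers of the 3 groups are all different. Depth did not limit the enzymes, since none had fewer than 3177 counts in a library.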
